A study of Drosophila melanogaster with 6 samples.

Results

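The 94 RNAs described here are the well-counted members of the numbered long noncoding RNA (lncRNA) genes of Drosophila melanogaster, those whose symbol is lncRNA:CR followed by a number. They were taken by one rule, at least 500 counts summed over all 6 libraries of the series and a position off chromosome 4, which left 94 of the 1897 lncRNA:CR genes in a table of 17612 genes. The summed counts that chose them ranged from 502 to 280672, with a median of 1373.5. Their abundance is therefore given below as a description, and the difference between the sample groups, which the rule did not use directly, was tested. The sum does contain the immunoprecipitated libraries and so favours genes that are high in them. In the input libraries alone, 65 of the 94 reached 500 counts. All 94 passed the filter on low counts, and none had 0 counts in any library.

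The series is an RNA immunoprecipitation experiment (RIP-seq), in which RNA recovered with a protein on antibody beads is sequenced beside the RNA of the starting extract. It asked which transcripts are recovered with the fly protein Isha. Nuclear extract was prepared from wild-type Oregon R embryos collected at 0 to 24 h, so that all stages and cell types of the embryo were mixed in every library. For the Isha RIP group, 12 mg of extract per immunoprecipitation was precleared on beads with preimmune serum and then bound to rabbit antiserum against Isha. The input group is nuclear extract RNA with no antibody step. Each group had 3 libraries. No library from control beads was analysed here, so each value below compares Isha RIP with input and not with a mock precipitation. Total counts were 29344529 to 31680173 per input library and 8386414 to 14342543 per RIP library, and 3 counts corresponded to a CPM (counts scaled to a fixed library total) of 0.0947 to 0.102 for input and 0.209 to 0.358 for RIP.

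Long noncoding RNAs are transcripts, usually made by RNA polymerase II, that are not known to be translated into protein. Some, such as the roX RNAs of the fly X chromosome, bind chromatin proteins, and others are the primary transcripts from which microRNAs (miRNAs) are cut in the nucleus by Drosha and its partner Pasha. Most genes of the numbered CR series have been annotated from transcript sequence alone and have no described function.

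The label of these genes as intergenic or intronic held for most of them but not for all. By the exon coordinates in the deposited table, 41 overlapped no other gene, 16 lay in an intron of a gene on the same strand and 7 in an intron of a gene on the opposite strand. Another 3 overlapped the span of a gene without being contained in it or sharing exon bases. The other 27 shared exon bases with another gene, 13 with one on the same strand and 14 with one on the opposite strand only. Reads of these 27 may belong in part to the overlapping gene, and no source used here states whether counting used strand. Annotated exon length ranged from 201 to 21024 bases (median 1525.5), and 57 of the 94 had a single exon.

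Most of the lncRNAs were more abundant in Isha RIP than in input. By edgeR's quasi-likelihood test, with adjustment over all 11764 genes tested, 65 of 94 were enriched (69.1%, against 27.0% of all genes tested) and 2 were depleted (2.13%, against 30.4% of all). The other 27 did not pass, with log2 fold changes between -0.71 and 0.77. An enrichment of at least 2-fold was called for 45 lncRNAs (47.9%, against 8.63% of all genes) and a depletion of at least 2-fold for 1 (1.06%, against 12.8%). The median log2 fold change was 0.91, or 1.88-fold, with quartiles of 0.43 and 1.62 and a range of -2.22 to 3.27, while the median over all genes tested was -0.05. Without the genes whose exons overlap another gene, 43 of the 67 lncRNAs left were enriched, against 2053 of 7670 over all genes then tested. In a test against a 1.5-fold change 46 of the 94 were enriched, and the number over all genes is not given here. Of the 65 lncRNAs chosen by input counts alone, 45 were enriched and 2 depleted (69.2% enriched), with a lower median log2 fold change of 0.74. This alternative was added after the data were seen.

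The libraries of each group separated for most of these genes. The CPM of all 3 RIP libraries lay above all 3 input libraries for 69 of the 94 (73.4%, against 30.0% of all genes tested) and below them for 3 (3.19%, against 34.0%), and the groups overlapped for 22. Between libraries of a group, the median coefficient of variation of these genes was 14.8% for input and 13.5% for RIP. As a share of all counts, the 94 genes together took 0.516% ± 0.00378 of input and 0.898% ± 0.00991 of RIP (SD, n = 3).

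**Figure D1:**
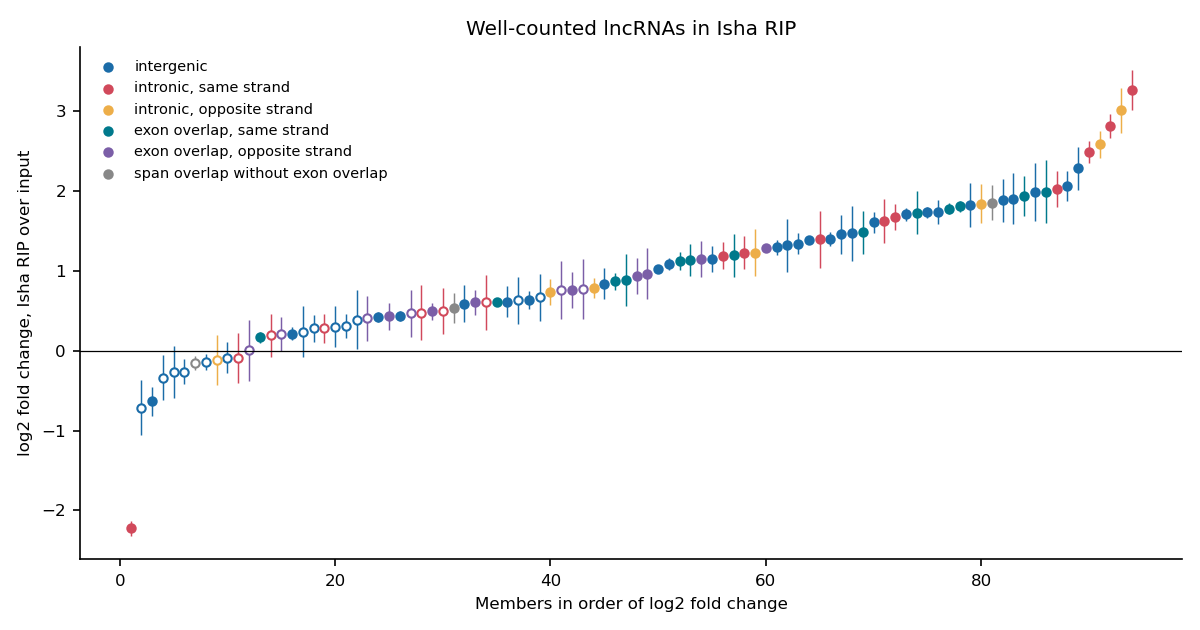
The 94 lncRNAs in order of their log2 fold change in Isha RIP over input (vertical axis; bars are the standard error from edgeR), with 1 point per gene coloured by its position relative to other genes. Filled points passed the test at an adjusted p under 0.05 and open points did not; values run from -2.22 to 3.27, and 83 of the 94 lie above 0.

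The closest relatives, the 3 lncRNA:CR genes of chromosome 4 with at least 500 counts, had 2 enriched and a median log2 fold change of 0.88. Of the 345 lncRNA:CR genes with fewer than 500 summed counts that could be tested, 68 were enriched and 5 depleted (19.7% enriched), with a median log2 fold change of 0.77. Only 345 of the 1800 such genes passed the filter on low counts, so the share is not over all of them. Their median input level was 0.79 CPM, against 8.58 CPM for the 94, so the shares called are not a like comparison. Over all genes tested, 27.0% were enriched and 30.4% depleted. Of 36 antisense RNA genes (asRNA:CR) with at least 500 counts, 17 were enriched and 4 depleted (47.2% enriched), with a median of 0.59. Of 8871 protein-coding genes within the same range of summed counts, 31.7% were enriched and 36.6% depleted, with a median of -0.08. The difference between classes was not tested.

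The share enriched was above that of all genes at every exon length. Of 35 lncRNAs shorter than 1000 bases, 25 were enriched (71.4%, against 17.9% of all genes of that length). From 1000 to under 3000 bases it was 22 of 35 (62.9%, against 21.3%), and from 3000 bases 18 of 24 (75.0%, against 43.7%). Over the 94 genes the log2 fold change had a Pearson correlation of -0.12 and a Spearman correlation of -0.16 with log2 exon length. With log2 input CPM the correlations were -0.30 and -0.33. The genes share all 6 libraries, and input CPM is part of the fold change itself, so these are descriptions.

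**Figure D2:**
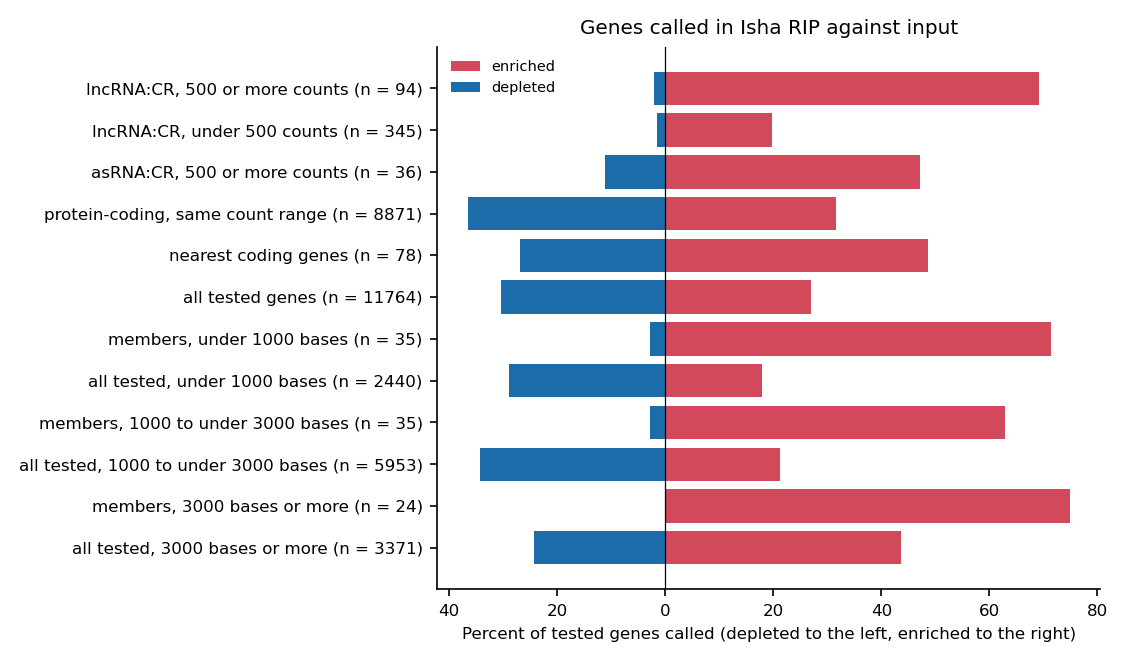
Percent of tested genes called enriched (bars to the right of 0) or depleted (bars to the left) in Isha RIP against input, by edgeR at an adjusted p under 0.05, for the lncRNAs, for other gene classes and by exon length; n is the number of genes tested. The lncRNAs with 500 or more counts show 69.1% enriched and 2.13% depleted, against 27.0% and 30.4% of all tested genes.

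By position, 27 of the 41 lncRNAs outside other genes were enriched and 1 depleted, with a median log2 fold change of 0.84 (27.0% of all genes tested were enriched and 30.4% depleted). Of the 23 in introns, 15 were enriched and 1 depleted (median 1.23). All 13 with a same-strand exon overlap were enriched (median 1.20), of which lncRNA:CR45409 and lncRNA:CR42491 lost the call without RIP replicate 1 (0.44 and 0.13). Of the 14 with an opposite-strand overlap, 8 were enriched (median 0.68). On the chromosome arms, 9 of 18 were enriched on 2L, 11 of 14 on 2R, 19 of 27 on 3L, 14 of 20 on 3R and 12 of 15 on X. Over all genes tested on these arms the shares were 24.8%, 26.8%, 29.2%, 25.0% and 27.4%. Of the single-exon lncRNAs 40 of 57 were enriched, and of those with several exons 25 of 37.

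The most enriched lncRNAs were ranked among those called, with groups that do not overlap and a mean of at least 5 CPM. The first 5 were all short, had a single exon and lay in an intron of another gene. The first 2, CR44973 and CR44138, had only 259 and 226 counts over the input libraries and so reached 500 through the RIP libraries, where they are high. lncRNA:CR44973 (FBgn0266308; dm6 chromosome 2L, 13582569 to 13583033, plus strand, 465 bases) lies in an intron of kuz, which encodes the metalloprotease that cleaves Notch and its ligand Delta. It was measured at 2.45, 2.13 and 3.84 CPM in the input libraries and at 23.1, 35.1 and 23.3 CPM in the RIP libraries. Every RIP library was several-fold above every input library, and the difference was 9.61-fold (log2 fold change 3.27, SE 0.25, edgeR adjusted p = 1.18e-10). lncRNA:CR44138 (3R, 13376903 to 13377395, 493 bases), on the strand opposite to CG9813 and within its intron, was at 2.84, 1.30 and 3.18 CPM in input and at 20.6, 17.6 and 21.0 CPM in RIP. It was 8.08-fold higher in RIP (adjusted p = 3.45e-09).

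lncRNA:CR45938 (3L, 18753797 to 18754085, 289 bases) lies in an intron of ftz-f1, the gene of a nuclear receptor needed for segmentation and metamorphosis. Its levels were 8.12, 6.35 and 6.89 CPM in input and 50.7, 53.2 and 46.7 CPM in RIP, with a narrow spread in both groups (log2 fold change 2.81, SE 0.149, adjusted p = 1.76e-13). lncRNA:CR44417 (2R, 17869027 to 17869857, 831 bases), on the opposite strand within an intron of Mapmodulin, was at 8.92, 11.2 and 16.0 CPM in input and at 72.9, 81.5 and 63.0 CPM in RIP. The input libraries of this gene spread more than those of CR45938, but the lowest RIP library was still above the highest input library (2.59, adjusted p = 4.73e-12). lncRNA:CR43910 (3L, 8569335 to 8569864, 530 bases) lies in an intron of rhea, the gene of talin, which couples integrins to the actin cytoskeleton. It was at 11.8, 15.1 and 17.0 CPM in input and at 73.3, 94.0 and 78.6 CPM in RIP (2.49, adjusted p = 2.79e-13).

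The next 5 were more varied in position, and 4 of them, all but CR43301, also had under 500 input counts (229 to 464). lncRNA:CR43995 (3L, 22072369 to 22072620), 252 bases long and 448 bases from the coding gene CG7133, rose from a mean of 3.45 to 16.9 CPM, a log2 fold change of 2.29 against -0.94 for CG7133. lncRNA:CR43301 (3R, 9338223 to 9339992) lies 224 bases from drn, on the other strand, and rose from 10.1 to 42.6 CPM (log2 fold change 2.07, and 1.68 for drn). lncRNA:CR32218, in an intron of Su(Tpl), the gene of an ELL-type transcription elongation factor, rose from 5.03 to 20.5 CPM, and lncRNA:CR45102, beside the repressor gene Mnt on X, from 2.47 to 9.79 CPM. lncRNA:CR44831 shares exon bases with pdgy, an acyl-CoA synthetase gene, on the same strand. It rose from 2.50 CPM ± 1.41 to 9.85 ± 4.66 (SD, n = 3; log2 fold change 1.99), while pdgy had a log2 fold change of -0.79. Groups without overlap were a condition for the choice of these 5. The spread between RIP libraries was widest, relative to its mean, for CR44831.

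**Figure D3:**
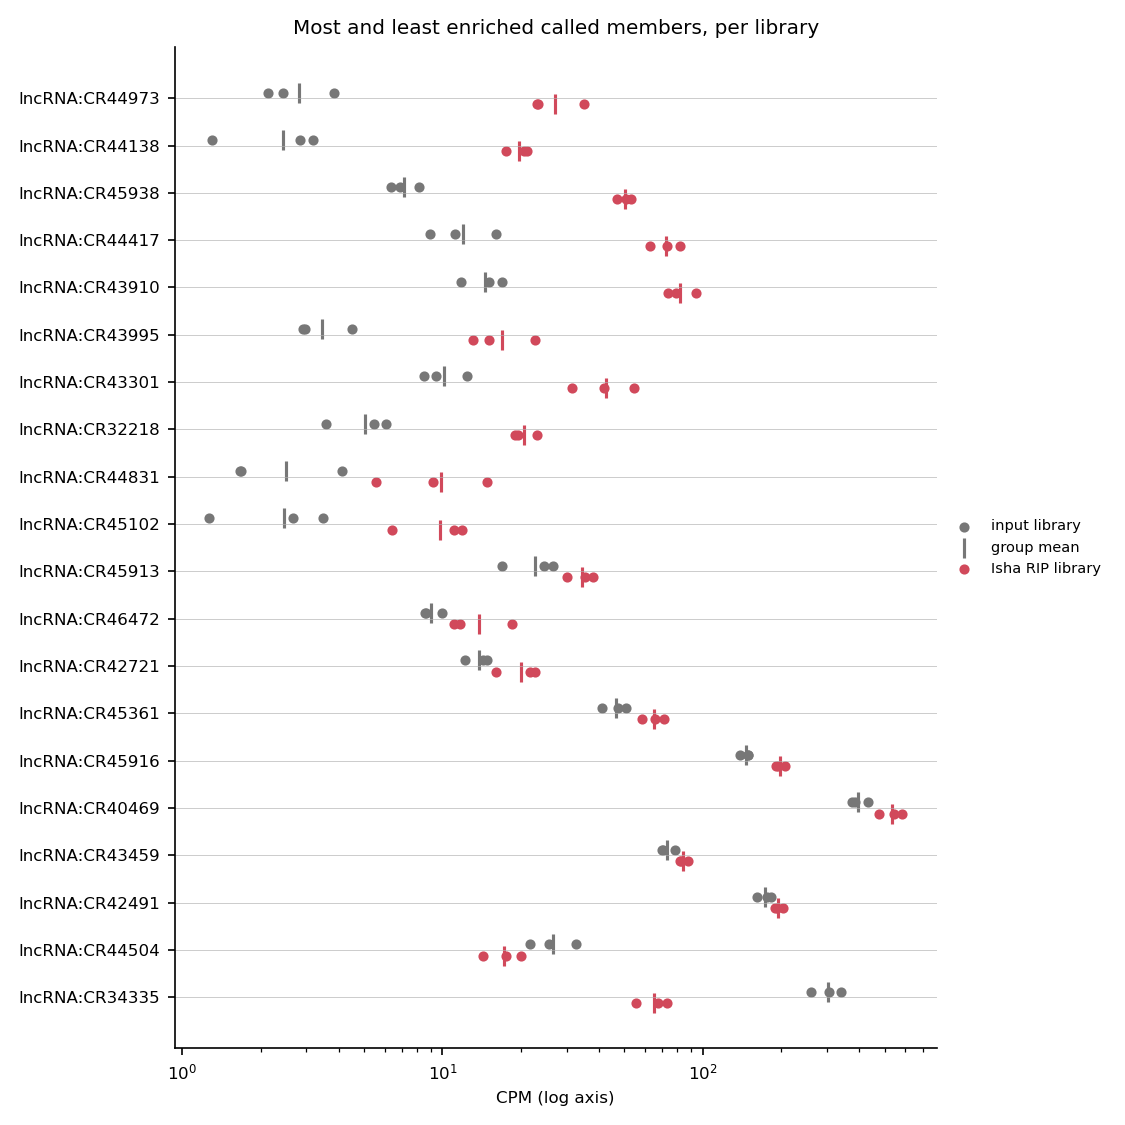
CPM (log axis) in each of the 3 input libraries (grey) and 3 Isha RIP libraries (red), with group means as vertical ticks, for the 10 most enriched called lncRNAs, the 8 least enriched and the 2 depleted ones, among those with groups that do not overlap and a mean of at least 5 CPM. The separation runs from 9.61-fold for lncRNA:CR44973 down to narrow gaps for lncRNA:CR43459 and lncRNA:CR42491, and reverses for lncRNA:CR44504 and lncRNA:CR34335.

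Only 2 of the 94 lncRNAs were depleted. lncRNA:CR34335 (FBgn0267910; X, 3545750 to 3546110, minus strand, 361 bases) lies in an intron of DIP-alpha, which encodes an immunoglobulin-superfamily cell surface protein of neurons. It was measured at 338.8, 306.9 and 261.4 CPM in input and at 72.7, 67.3 and 55.6 CPM in RIP. The highest RIP library was far below the lowest input library, and the difference was 4.67-fold (log2 fold change -2.22, SE 0.094, edgeR adjusted p = 2.84e-15). The other depleted RNA, lncRNA:CR44504 (2R, 19659645 to 19661847), holds the 8 miRNA genes of the mir-309 cluster, whose products are known to clear maternal mRNAs in the early embryo. Its levels were 25.6, 21.7 and 32.7 CPM in input and 20.1, 17.5 and 14.3 CPM in RIP. These groups came close to each other without overlapping (log2 fold change -0.63, adjusted p = 0.00389). The call was lost without input replicate 3 (-0.46, adjusted p = 0.0573), which leaves CR34335 as the lone depleted lncRNA, and in the test against a 1.5-fold change.

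By counts, lncRNA:CR42862 (3L, 224106 to 230964) had more counts than any other of the 94 genes, with 38.3% to 38.7% of the counts of all 94 in the input libraries and 33.6% to 35.3% in the RIP libraries. It was at 2006, 2000 and 1997 CPM in input and at 3039, 3019 and 3107 CPM in RIP. The libraries of each group were nearly equal, and the difference, 0.61 on the log2 scale, passed the test (adjusted p = 1.34e-14). Its exons overlap those of CG33229 on the same strand, for which the log2 fold change was 0.55. Per kilobase of exon, which allows levels of different genes to be compared, input levels ran from 0.310 to 1854 CPM per kilobase, with a median of 6.48. The highest was lncRNA:CR40469 (X, 122493 to 122706), at 1854 ± 143 CPM per kilobase (SD, n = 3), followed by CR34335 at 838, CR42862 at 365, lncRNA:CR42491 at 233 and lncRNA:CR43651 at 199. CR40469 was at 385.1, 373.5 and 431.5 CPM in input and at 584.0, 544.3 and 475.3 CPM in RIP, with a log2 fold change of 0.43 (adjusted p = 3.63e-06). Of these 5 abundant RNAs, 4 were enriched and CR34335 was depleted (27.0% and 30.4% over all genes tested). The call of CR42491, with a log2 fold change of 0.17, was lost without some single libraries, as given below.

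Primary transcripts of miRNAs formed the best-known group among the 94. By RefSeq coordinates of the same build, 23 of the lncRNAs held 35 miRNA genes, all 35 within exons, and 5 of the lncRNAs held more than 1. The RefSeq table used gives no strand for miRNA genes, so they were matched on position alone. Of the 23, 17 were enriched and 1 depleted, and 9 rose at least 2-fold (over all genes tested, 27.0%, 30.4% and 8.63%). Their median log2 fold change was 0.61, against 1.13 for the 71 lncRNAs without a miRNA gene, of which 48 were enriched. The lowest input total of the 23 was 633 counts (lncRNA:CR46004). All 29 lncRNAs that reached the minimum summed count only with the RIP libraries therefore fall among the 71. Of these 29, 20 were enriched and 0 depleted. The choice of genes thus favours a higher median in the 71, and the medians are not a like comparison. The RIP libraries lay above input in 16 of the 23 and below in 1, and the groups overlapped in 6. Their median level was 37.7 CPM in input and 65.2 CPM in RIP. The difference between lncRNAs with and without a miRNA gene was not tested.

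The most enriched of them was lncRNA:CR31044 (3R, 29214562 to 29219667), the transcript of mir-279 and mir-996, of which mir-279 prevents the formation of CO2-sensing neurons on the maxillary palp. It was at 74.5, 71.0 and 68.9 CPM in input and at 239.5, 222.3 and 251.7 CPM in RIP, with no overlap and a log2 fold change of 1.74 (edgeR adjusted p = 8.13e-16). lncRNA:CR45919 (2L, 17560813 to 17566551) carries mir-124, the miRNA of neurons, and was at 47.1, 51.7 and 56.9 CPM in input and at 172.2, 172.9 and 164.1 CPM in RIP (1.71, adjusted p = 1.84e-14). All 10 genes of a list of neuron markers were also enriched in the same libraries, with a median log2 fold change of 0.86, and their summed CPM ran from 1355 to 1459 for input and from 2727 to 2776 for RIP. The part of neuronal RNA in the value of CR45919 was not tested. Every library was made from nuclear extract of mixed embryos, and its counts are not resolved by cell type.

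Several miRNA transcripts of growth and survival were enriched by more than 2-fold. lncRNA:CR43334 (3L, 628435 to 643900) carries bantam (mir-ban), which promotes growth and blocks apoptosis, and was at 320.9, 342.4 and 325.8 CPM in input and at 818.6, 826.7 and 780.4 CPM in RIP (log2 fold change 1.29, adjusted p = 7.01e-17). lncRNA:CR43651 (2R, 9552844 to 9553940), with mir-14, a suppressor of cell death, was at 207.6, 229.3 and 217.2 CPM in input and at 579.7, 559.5 and 576.7 CPM in RIP (1.39, adjusted p = 1.35e-16). In both, the RIP libraries were all above every input library by more than the whole spread of either group. lncRNA:CR45911, with mir-13b-1, mir-13a and mir-2c, of a family that represses pro-apoptotic genes, rose from 20.9, 20.6 and 16.5 CPM to 56.3, 68.0 and 53.2 CPM (1.61). lncRNA:CR43650, with the growth regulator mir-8, rose from 182.8, 195.4 and 191.3 CPM to 380.4, 399.9 and 379.4 CPM (1.03).

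Developmental and neuronal miRNA transcripts filled out the group. lncRNA:CR44206, with mir-184, which acts in oogenesis and early development, rose from 36.5, 38.6 and 38.0 CPM to 99.6, 96.5 and 103.2 CPM (log2 fold change 1.40). lncRNA:CR46006, with mir-276a, known from olfactory memory, rose from 37.4, 43.1 and 37.9 CPM to 92.3, 101.6 and 97.3 CPM (1.30). Its relative mir-276b lies in lncRNA:CR46004, which overlaps exon bases of CR46003 on the other strand, and there the log2 fold change of 0.41 did not pass (adjusted p = 0.225). lncRNA:CR43314, with mir-bft (bereft), rose by 1.08 and lncRNA:CR45910, with mir-1000 of the nervous system, by 0.79.

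lncRNA:CR45361 carries mir-1, the miRNA of muscle, and was at 40.9, 50.9 and 47.4 CPM in input and at 58.7, 65.8 and 71.2 CPM in RIP, a log2 fold change of 0.49 (adjusted p = 4.26e-04). Of 8 muscle marker genes in the same libraries 6 were enriched and 2 depleted, with a median of 0.41, and their part in the value of CR45361 was not tested. lncRNA:CR45916, with mir-9a, which limits the number of sense organ precursors, was at 149.5, 149.9 and 139.7 CPM in input and at 195.1, 207.6 and 190.6 CPM in RIP (0.43, adjusted p = 2.93e-06). lncRNA:CR43459 carries mir-277 and mir-34, the latter known from the ageing brain, and was at 70.1, 78.3 and 69.5 CPM in input and at 81.8, 82.9 and 87.8 CPM in RIP. The log2 fold change, 0.21, passed the test (adjusted p = 0.0352). The call was lost when any library but input replicate 2 was left out (values of 0.17 to 0.23), and the value was -0.076 with an offset for gene length. lncRNA:CR45913 (mir-1002 and mir-968) and lncRNA:CR43270 (mir-958) rose by 0.61 and 0.64. For lncRNA:CR45920 (mir-316) the groups overlapped although the test called a log2 fold change of 0.43 (adjusted p = 0.0306), and the call was lost without input replicate 2 (0.36), input replicate 3 (0.45) or RIP replicate 2 (0.16).

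lncRNA:CR42651 (3R, 6808796 to 6816379), which holds the Hox-cluster miRNA gene mir-10, was at 108.3, 100.2 and 106.3 CPM in input and at 89.4, 85.0 and 107.8 CPM in RIP. RIP replicate 3 lay among the input libraries, and the log2 fold change of -0.15 did not pass (adjusted p = 0.142), although it did without that library (-0.27, adjusted p = 0.0149). lncRNA:CR42721 (3R, 6767050 to 6779728), with mir-993, was at 14.9, 12.2 and 14.3 CPM in input and at 22.7, 21.6 and 16.1 CPM in RIP (0.54, adjusted p = 0.0165), a call lost without input replicate 2 (0.46) or RIP replicate 1 (0.43). A further pair, lncRNA:CR44932 and lncRNA:CR43252, lies beside each other near Antp and were chosen for mention after their values were seen. They rose from 12.1 to 40.3 CPM (1.74) and from 3.61 to 11.2 CPM (1.63). The other values that did not pass were 0.21 for lncRNA:CR45388 (mir-315, known to activate Wingless signalling when overproduced), -0.26 for lncRNA:CR45347 (mir-4973) and -0.34 for lncRNA:CR45345 (mir-375).

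The place of the hairpin within the annotated transcript varied. Of the 35 miRNA genes, 12, in 10 of the lncRNAs, lay within 1000 bases of the annotated downstream end of the transcript, and 14 lay within 1000 bases of the upstream end. These 14 come from fewer transcripts, since they include all miRNA genes of lncRNA:CR44504 but mir-6-3, from 73 bases for mir-309 to 905 for mir-6-2. The gene mir-14, at 918 and 116 bases from the ends of its transcript, is counted at both. The distance to the downstream end was shortest, 17 bases, for mir-1, followed by 50 for mir-184, 82 for mir-124, 88 for mir-13b-1 and 116 for mir-14. The counts are per gene and do not show reads on either side of a hairpin. The log2 fold changes of these 5 hosts were 0.49, 1.40, 1.71, 1.61 and 1.39.

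**Figure D4:**
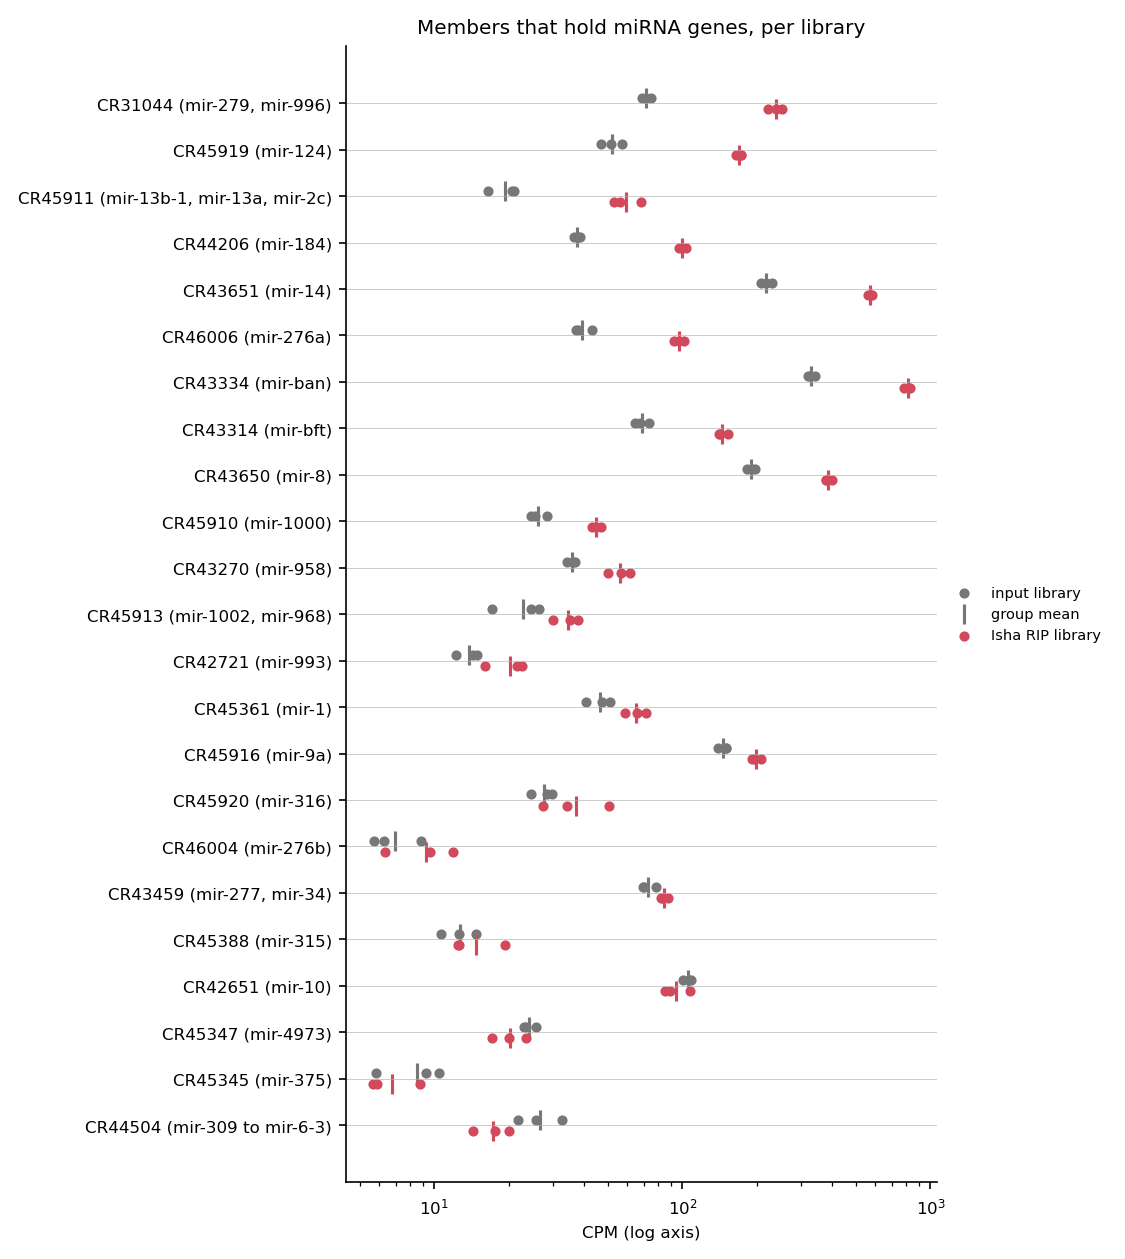
CPM (log axis) in each input library (grey) and Isha RIP library (red), with group means as vertical ticks, for the 23 lncRNAs that hold miRNA genes, in order of log2 fold change. The upper rows are well separated, from 1.74 for lncRNA:CR31044, and the groups approach or overlap in the lower rows until the order turns for lncRNA:CR44504 at -0.63.

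One of the 94 held a snoRNA gene, a guide for RNA modification. lncRNA:CR42491 (X, 747 bases) contains snoRNA:Psi18S-531 and overlaps exons of RpL22, a ribosomal protein gene, on the same strand. It was at 161.6, 183.3 and 176.4 CPM in input and at 202.7, 193.5 and 189.5 CPM in RIP. The RIP libraries lay just above the input libraries (log2 fold change 0.17, adjusted p = 0.0278), while RpL22 went from 508 to 102 CPM (-2.31). The call of CR42491 was lost without input replicate 1 (0.12), input replicate 3 (0.18), RIP replicate 1 (0.13) or RIP replicate 2 (0.17). Another small rise was that of lncRNA:CR46472 on X, by 0.59 (adjusted p = 0.0318), which was lost without input replicate 1 (0.56), input replicate 3 (0.56) or RIP replicate 2 (0.32).

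For lncRNAs inside introns, the gene around them gives a direct comparison within the same libraries. Of the 23 intronic lncRNAs, 21 had a protein-coding host that could be tested. The difference between the log2 ratio of the lncRNA and that of its host was fitted with limma over 117 nested genes. These 117 were the tested lncRNA:CR and asRNA:CR genes that lay in an intron of a tested protein-coding gene. The lncRNA was above its host in 6 of 21 pairs (28.6%, against 14.5% of all 117) and below it in 1 (4.76%, against 2.56%). The other 14 pairs did not pass, and the estimate was above 0 in 16 of the 21. Among the 6, CR44973, CR44138, lncRNA:CR43496 and lncRNA:CR43951 had only 259, 226, 357 and 342 input counts. They reached the minimum summed count of the set through the RIP libraries, where they are high. The rule that chose the lncRNAs thus favours a high share above the host, and 28.6% and 14.5% are not a like comparison. Among the 21 hosts 13 were enriched and 5 depleted (27.0% and 30.4% over all genes tested). Their median log2 fold change was 0.45, against 1.19 for the nested lncRNAs, a value that the same rule favours. Unspliced host RNA also covers these introns, and its part in the counts of the lncRNAs was not tested.

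The largest excess was that of CR43910 over rhea, 2.78 on the log2 scale (95% interval 2.01 to 3.54, limma adjusted p = 0.00744). The host went from 584 to 479 CPM, a log2 fold change of -0.29, while its nested lncRNA rose. CR44973 exceeded kuz by 2.65 (1.78 to 3.51), where kuz itself rose from 353 to 536 CPM. CR44138 exceeded CG9813 by 2.66 (1.63 to 3.69), and CR45938 exceeded ftz-f1, which rose from 359 to 534 CPM, by 2.24 (1.55 to 2.92). lncRNA:CR43496 on X was at 3.91 CPM ± 0.590 in input and 14.0 ± 0.591 in RIP (SD, n = 3) and exceeded sov, a heterochromatin gene on the other strand, by 1.81 (1.12 to 2.49), with sov at 197 and 200 CPM. lncRNA:CR43951 exceeded Diap1, the inhibitor of apoptosis, by 1.69 (1.00 to 2.38), while Diap1 went from 242 to 175 CPM. Of the 6 hosts 2, rhea and Diap1, were depleted.

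The pair in the other direction was CR34335 and DIP-alpha, with a difference of -2.50 (95% interval -3.34 to -1.67, limma adjusted p = 0.00744), since DIP-alpha went from 34.8 to 42.6 CPM. Other lncRNAs had an estimate close to that of their host. For CR45910, on the strand opposite to msi, the difference was -0.15 (-0.82 to 0.52), for lncRNA:CR45825 in bru3 it was 0.15 (-0.57 to 0.86), and for lncRNA:CR30055 in Sin3A, a corepressor gene, it was 0.29 (-0.43 to 1.01). These intervals reach down to -0.82 and up to 1.01, so sizeable differences from the host remain possible. The pairs CR32218 with Su(Tpl) at 1.28 and CR44417 with Mapmodulin at 1.08 did not pass (adjusted p = 0.0511 and 0.0559). The pairs that did not pass were chosen for mention after their values were seen.

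**Figure D5:**
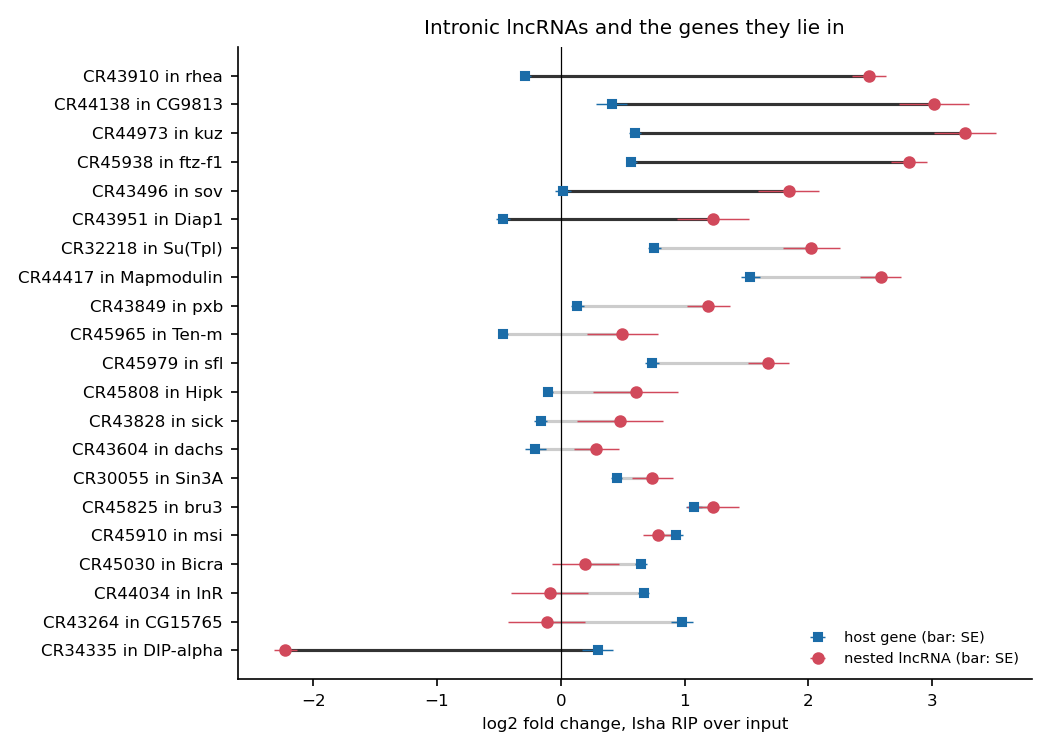
Log2 fold change in Isha RIP over input (horizontal axis, bars are standard errors from edgeR) of 21 intronic lncRNAs (red circles) and of the genes they lie in (blue squares), joined by a line that is dark where the difference passed the limma test at an adjusted p under 0.05. The lncRNA lies to the right of its host in 16 of the 21 pairs, and the dark lines are 6 pairs with the lncRNA above and CR34335 below its host.

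The same comparison for lncRNAs that share exon bases with another gene was made without a test, since shared reads tie the values together. In all 12 same-strand overlaps with a tested partner the lncRNA had the higher log2 fold change. Among them, CR45409, lncRNA:CR46258, lncRNA:CR43900, lncRNA:CR46322 and CR44831 had only 400, 390, 376, 333 and 231 input counts. They reached the minimum summed count through the RIP libraries, where they are high. The partners were not chosen by this rule, which thus favours a higher value for the lncRNA. Of these 12 partners 8 were enriched and 4 depleted (27.0% and 30.4% over all genes tested). The 4 depleted partners were RpL22 at -2.31, the cleavage factor gene Cpsf6 at -1.15 beside CR45409 at 0.89 (not called without input replicate 2, at 0.76, or RIP replicate 1, at 0.44), pdgy at -0.79 and the teneurin gene Ten-m at -0.47 beside lncRNA:CR45962 at 1.13. Among the enriched ones were Cam, the calmodulin gene, at 1.54 beside lncRNA:CR43900 at 1.94, mura at 1.17 beside lncRNA:CR42549 at 1.81 and Tis11, an mRNA decay factor gene, at 0.68 beside lncRNA:CR33963 at 1.78. Of the 14 opposite-strand overlaps with a tested partner, the lncRNA was higher in 8. These examples were chosen after their values were seen.

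The coding genes closest to the lncRNAs give a second reference, without a test. The 94 had 88 different nearest coding genes, of which 78 were tested. Of these, 38 were enriched (48.7%, against 27.0% of all genes tested) and 21 depleted (26.9%, against 30.4%), with a median log2 fold change of 0.29. Their median exon length was 3452.5 bases. Over all genes of 3000 bases or more, 43.7% were enriched and 24.4% depleted, close to the shares of these neighbours. Where the neighbour was tested, the lncRNA had the higher value in 65 of 83 cases. The lncRNAs, but not their neighbours, were chosen by a sum that contains the RIP libraries, which favours a higher value for the lncRNA. The correlation between the values of lncRNA and neighbour was 0.17 (Pearson) and 0.14 (Spearman) over these pairs, which share all libraries. Of the 41 lncRNAs outside genes, 27 lay within 1000 bases of a coding gene, and 17 of these were enriched, as were 10 of the 14 farther away. The distances ran from 26 to 45368 bases, with a median of 533.

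Some of the lncRNAs lie close together, and 12 fell into 5 clusters with gaps under 10000 bases. On 2L the mir-1 transcript CR45361 (log2 fold change 0.49) is followed by lncRNA:CR45360 at 1.15 and lncRNA:CR45359 at 0.61, and all 3 were enriched. CR45359 was no longer called when input replicate 3 or RIP replicate 2 was left out (lowest value 0.47). On 3L CR46003, CR46004 and CR46006 around mir-276 had values of 0.87, 0.41 and 1.30, of which the middle one did not pass. On 2R lncRNA:CR46064 was at 1.15 and its neighbour lncRNA:CR46478 at 0.01, a value without a settled sign, which ranged from -0.24 to 0.37 over the alternatives. The remaining clusters are the pair near Antp, at 1.74 and 1.63, and the pair in Ten-m, CR45962 and lncRNA:CR45965, at 1.13 and 0.50. The clusters were found by distance alone, and their members were named after their values were seen.

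At the minimum that defines the set, the values of the nearest RNAs on either side can be set beside each other. lncRNA:CR45363 and lncRNA:CR45897 had 502 summed counts each and lncRNA:CR42861 had 505, with log2 fold changes of 0.77, 1.40 and 1.47. CR45897 and CR42861 passed the test, and CR45363 did not (edgeR adjusted p = 0.0817). All of them had under 500 input counts (265 to 312) and so reached the minimum through the RIP libraries. Just below it, lncRNA:CR45593, lncRNA:CR45312 and lncRNA:CR44662 had 495, 487 and 465 counts and log2 fold changes of -0.85, 0.78 and 0.95. CR45593 and CR45312 did not pass (edgeR adjusted p = 0.0853 and 0.0755), and CR44662 passed (0.0435) with groups that overlapped. With a minimum of 250 counts 91 of 154 lncRNAs were enriched, and with one of 1000 it was 46 of 57 (27.0% over all genes tested).

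Other marker lists in the same libraries give the setting of these values. Of the gut markers 5 of 5 were depleted, with a summed CPM of 172 to 202 for input and 33.5 to 41.5 for RIP. Of the cuticle markers 3 of 5 were enriched, and of the early patterning genes 1 of 7 was enriched and 2 were depleted. The germ line list had 1 depleted gene of 4 tested, the glia list 1 enriched and 2 depleted of 5, and the hemocyte list 2 enriched and 3 depleted of 5. The adult testis genes Mst84Da, ProtA and dj and the accessory gland genes Acp26Aa and Acp36DE had 0 counts in every library. The 3 nuclear RNAs lncRNA:roX1, lncRNA:roX2 and lncRNA:Hsromega, which are not among the 94, were all enriched, with a median log2 fold change of 1.39. The part of these differences in the values of the lncRNAs was not tested.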

How the data were processed

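The values used are raw counts of reads for each gene as the authors deposited them, in 1 table that also holds exon coordinates and lengths. Reads were handled with HISAT2 2.2.1, cutadapt 2.9, Subread 2.0.0 and Picard 2.22.2 on dm6, per the submitters' processing notes. The sources used here give no annotation version, strand setting or treatment of duplicate and multiply placed reads. Groups and replicate numbers came from the sample titles.

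Symbols were matched to RefSeq genes of the same build by coordinates for 17170 genes and by identifier for 16. Genes were filtered with filterByExpr (minimum count 10), scaled by TMM and tested with edgeR 4.0.16 (quasi-likelihood, 2-sided, Benjamini-Hochberg over 11764 genes, calls under 0.05) in R 4.3.3. CPM uses TMM-scaled totals. Differences between nested genes and hosts were fitted with limma 3.58.1 on log2 CPM (prior count 2). The workflow was tested on simulated counts.

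The lncRNAs, lists and tests were chosen with earlier results of these data known. Genes were named by rule: the 10 highest and 10 lowest called log2 fold changes with non-overlapping groups and a mean of at least 5 CPM, the most abundant, those holding miRNA or snoRNA genes, those at the minimum, and called nested pairs. All pairs of replicates differed by more than counting noise (chi-square divided by its degrees of freedom, 5.78 to 14.3). Same-numbered libraries did not deviate together (correlations -0.01 to -0.04), so numbers were not used as pairs. The labels do not say that libraries came from separate collections, and the p-values may thus rest on a technical spread. Floors cover counting error only. Alternatives covered scaling, filters, other tools, gene length, overlaps, depth, the replicate block and each library left out. A search of promoter sequences was not run.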

Additional observations from a re-analysis of the deposited data

How the results depend on the processing

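The 65 enriched lncRNAs became 61 to 64 when 1 library was left out, 43 without genes with overlapping exons (67 lncRNAs left), 46 against a 1.5-fold change, 56 with a strict count filter (66 lncRNAs tested) and 63 to 67 otherwise at the same minimum. Over all genes tested, 2908 to 3034 were enriched with 1 library left out (of 11584 to 12398). Without overlapping exons it was 2053 of 7670, with the strict filter 2853 of 7906, and otherwise 2986 to 3357. The number over all genes against a 1.5-fold change is not given here. Depleted lncRNAs numbered 1 to 3 with 1 library left out (3204 to 3533 over all genes tested) and 1 against a 1.5-fold change. Of the miRNA transcripts 15 to 16 were enriched and 0 to 2 depleted with 1 library left out, and 9 and 0 against a 1.5-fold change; these miRNA alternatives were added after the data were seen. The median log2 fold change was 0.89 to 1.03 with 1 library left out and 1.15 with the strict filter, and 0.74 for lncRNAs chosen by input counts alone. With the replicate number as a block 65 were enriched and the median was 0.90, and the counts of depleted lncRNAs, miRNA transcripts and nested pairs were the same; the numbers do not pair the libraries. Nested lncRNAs above their host numbered 6 to 7 with 1 library left out and 9 at a prior count of 5, and 1 was below it throughout. Of the 94, 1 called and 6 uncalled lncRNAs changed sign under some setting. Among those named by rule, these were CR42651 at 0.0049 and CR43459 at -0.076 with a gene length offset, and CR45388, at -0.020 without RIP replicate 2 and up to 0.34 without input replicate 3; the others were CR46478 (-0.24 to 0.37), CR43264 (-0.37 to 0.18), CR46450 (-0.16 to 0.14) and CR44034 (-0.29 to 0.10). Except for the smaller tested sets above, the cause was not tested. Of 67 called lncRNAs, 47 were called under all settings in which they were tested. With the test against a 1.5-fold change and the strict filter set aside, it was 58. A setting that left a lncRNA out, such as the one without overlapping exons, was not counted for that lncRNA. Upper-quartile scaling moved the median of all genes to -0.10. The lower depth of the RIP libraries may limit calls of depletion among low-count lncRNAs, which was not tested. With counts thinned to equal depth 2 lncRNAs were depleted. No control-bead library was analysed here, and gene-level counts and unknown strand handling limit every value.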
